A study of Mus musculus with 3 samples.

Results

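Library 2 was compared with library 1, gene by gene, in YFP (+) microglia sorted from the lumbar spinal cord of mice. Cells were assigned by the suffix of their barcode, 2 or 1, and were kept if they held at least 2000 unique molecular identifiers (UMIs), each of which stands for 1 counted transcript. This kept 3569 of 3591 cells in library 2 and 408 of 609 cells in library 1, together 3977 of the 7522 cells of the series. Every kept cell was thinned at random to 2000 UMIs, and the UMIs of a gene were then summed over the cells of a library and expressed as a level in UMIs per 1000000 UMIs of the library (CPM).

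The 3 libraries of the series came from naive mice, from mice at 24 h and from mice at 48 h after transection of the sciatic nerve, with 1 library for each of these groups. All mice were C57BL/6 young adult Cx3cr1-creER-yfp/+ animals, heterozygous for the reporter at the Cx3cr1 locus, and lumbar cords of 3 animals were pooled per group. The reporter is expressed wherever Cx3cr1 is active, which includes circulating monocytes as well as microglia, and the sort used YFP after size selection and doublet exclusion. Because no label or header ties a suffix to a group, neither library is given a time point here, and effects of injury, of the pooled animals and of library preparation cannot be told apart. With 1 library on each side there was no replicate error and no test. The 95% intervals given below are exact Poisson intervals for levels, exact conditional intervals for ratios and exact binomial (Clopper-Pearson) intervals for shares of cells, and they cover counting error only.

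Microglia are the resident macrophages of the central nervous system and maintain their number by dividing locally. A cell that enters the cycle first makes G1 cyclins, which release E2F transcription factors, then the enzymes and histones of S phase, and last the kinases, kinetochore proteins and microtubule proteins of G2 and mitosis. Genes of the last group share a repressed state in resting cells, held by a complex that binds short elements near their start sites. Peripheral nerve injury is known to start microglia proliferation in the segment of the cord that the nerve projects to.

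Both libraries carried the markers of microglia. Of the 24 microglia surface and secreted markers in the matrix, all were found in both libraries, with a summed level of 141957 CPM in library 1 and 122133 in library 2. Lists of other cell types were far below these levels, and several were at or near 0. The B cell, oligodendrocyte and endothelial lists were the highest of them. The monocyte list summed to 9.80 CPM (4.23 to 19.3) in library 1 and 3.08 (1.93 to 4.67) in library 2, and the perivascular macrophage list to 0 and 2.66. Neutrophil markers summed to 0 and 5.32 CPM, red blood cell markers to 0 and 3.92, neuronal markers to 1.23 and 1.40, and astrocyte markers to 3.68 and 3.64. Oligodendrocyte markers, mostly the myelin gene Mbp, were at 30.6 and 29.7 CPM in libraries 1 and 2. T and NK cell markers were at 1.23 CPM in library 1 and 14 in library 2, where 64 of the 100 UMIs came from the granzyme Gzma. A single cell of library 2 held 33 of these 100 UMIs. The B cell list came to 36.8 and 56.7 CPM and rested on Cd79b, and the endothelial list to 30.6 and 14.7 and rested on Pecam1. A limit of 3 counts corresponds to 3.68 CPM in library 1 and to 0.420 in library 2, so a list at 0 in library 1 may still have been present below that level. The part of these other cell types in the differences between the libraries was not tested. The genes Itgam, Knl1, Clec7a, Trbc2 and Ighm were not analysed here.

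The libraries differed in size and depth. Before thinning, kept cells of library 1 had a median of 2487 UMIs and those of library 2 of 5961. After thinning to 2000 UMIs, the median number of genes per cell was 1110 in library 1 and 1114 in library 2. The median share of mitochondrially encoded UMIs in the kept cells was 0.925% in library 1 and 1.52% in library 2. Summed over cells, library 1 held 816000 thinned UMIs and library 2 held 7138000, so that 1 UMI corresponds to 1.23 CPM in library 1 and to 0.140 in library 2, and library 1 sets the precision of every ratio. The 2 libraries shared 5 cell barcodes, 3 of them among the kept cells.

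Most genes had similar levels in the 2 libraries. Among 6192 genes with a mean level of at least 20 CPM, 5775 (93.3%) differed by less than 2-fold, on a log2 ratio with 1 CPM added to both levels. The other genes were 233 genes at least 2-fold higher in library 2 (3.76% of the genes kept) and 184 genes at least 2-fold lower (2.97%). With the median ratio of all genes kept set to 0, the genes at least 2-fold higher were 287 and the genes at least 2-fold lower 128. The whole counting interval of the ratio lay beyond 2-fold for 76 of the genes counted as higher and 43 of those counted as lower. A 4-fold difference was reached by 49 genes in the higher direction and by 5 in the lower direction. The median log2 ratio of the genes kept was -0.08, and the quartiles were -0.42 and 0.30. The share of all genes kept above or below 0 is not given. Counts of list members above or below 0 thus have only this median and these quartiles beside them. A gene can reach the mean level of 20 CPM through 1 library alone, so the counts and medians over measured members of a list, that is, members that reached it, describe the list and support nothing.

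**Figure D1:**
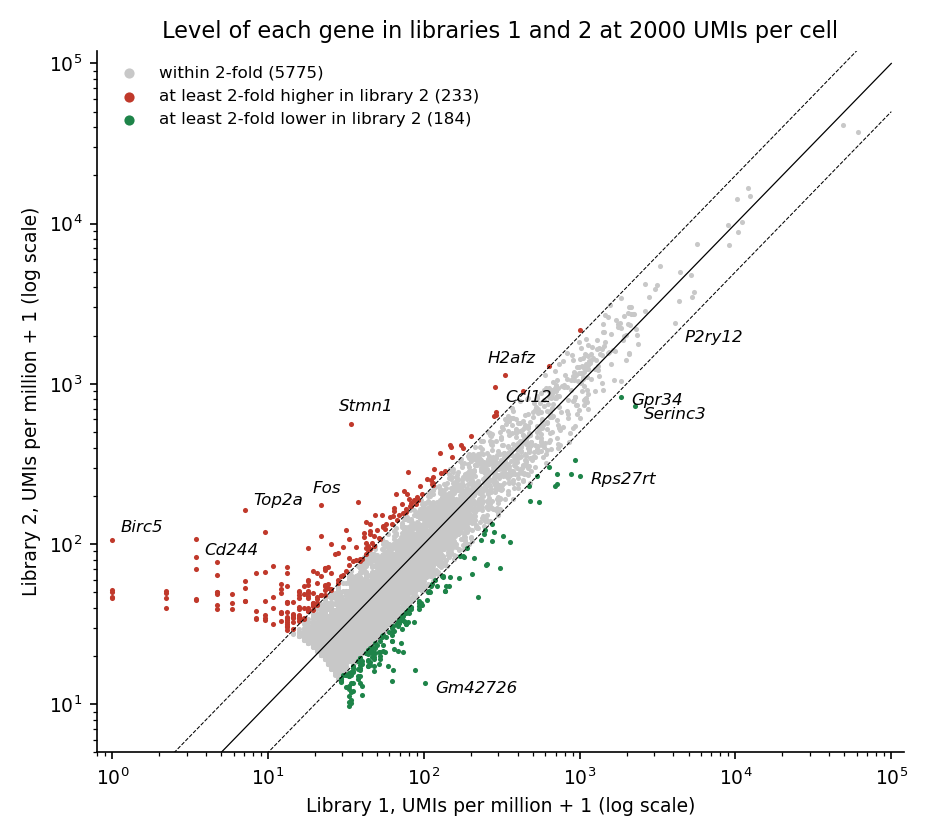
Level of each of the 6192 genes kept, in UMIs per 1000000 (CPM) plus 1, in library 1 (horizontal, log scale) and library 2 (vertical, log scale), with 1 point per gene, a solid line at equal levels and dashed lines at 2-fold. The 233 higher genes spread far from the line at low levels of library 1, with Birc5 at 0 UMIs there, while most of the 184 lower genes lie nearer to the 2-fold line, with 5 at least 4-fold lower, Gm42726 the furthest.

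The genes furthest above in library 2 included genes of cell division. Of the 15 highest ratios among the 3236 genes with a mean level of at least 50 CPM, 6 belonged to the lists of DNA replication, of mitosis and of histones. Of all 6192 genes kept, at the lower limit of 20 CPM, 57 belonged to these lists. The number of list members among the 3236 genes is not given. Cd244, outside these lists and described below, had a higher ratio than Top2a. Birc5, which encodes survivin, a subunit of the chromosomal passenger complex of mitosis, had 0 UMIs in library 1 and a level of 105 CPM (97.3 to 112) in library 2, where 18.7% of cells had a UMI. Against the limit of 3 counts in library 1 this is at least 28.5-fold higher. Top2a, the topoisomerase that untangles replicated chromosomes, was at 6.13 CPM (1.99 to 14.3) in library 1 and at 163 (154 to 173) in library 2, a ratio of 26.6 (11.4 to 82.0). Stmn1, or stathmin, which destabilizes microtubules, was at 33.1 and 561 CPM, a ratio of 16.9 (11.6 to 25.7), and was found in 5.64% of cells of library 1 and 64.9% of library 2. 2810417H13Rik, which encodes the PCNA-associated factor PCLAF, was at 8.58 and 119 CPM. All 4 intervals in library 2 lie above those in library 1. These genes were picked from the 15 highest ratios, so the choice set this direction. In library 3 the same genes were at 1.07 CPM for Birc5, 5.02 for Top2a, 68.5 for Stmn1 and 4.72 for 2810417H13Rik, all below their level in library 2.

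Genes of mitosis and the kinetochore were higher in library 2 almost throughout the list. Of 49 list genes in the matrix, 48 had a higher level in library 2 and 1, Pttg1, a lower level. Library 1, with fewer UMIs, had 0 UMIs of 18 of the 49. Any UMI in library 2 sets the direction of those 18, so the count of 48 overstates how far the genes agree. Summed over all 49 genes, which needs no filter on low values, the list was at 217 CPM (186 to 251) in library 1 and at 1792 (1761 to 1823) in library 2, a ratio of 8.26 (7.12 to 9.64). Only 17 of the 49 genes reached the mean level of 20 CPM, most of them through library 2, and 16 of the 17 were at least 2-fold higher, against 3.76% of all genes kept. The median log2 ratio of these 17 was 4.04, or 3.62 with the 3 members at 0 UMIs in library 1 set to their lower bound. In library 3 the summed level was 227 CPM.

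Mki67, the gene of the proliferation antigen Ki-67, was at 3.68 CPM (0.758 to 10.7) in library 1, from 3 UMIs, and at 76.1 (69.8 to 82.7) in library 2, a ratio of 20.7 with a counting interval of 7.04 to 101. A UMI of it was found in 0.245% of cells of library 1, that is in 1 cell, and in 13.3% of library 2. The 3 UMIs of Mki67 in library 1 thus come from 1 cell, while the interval takes them as independent counts. The highest cell of library 1 held 19 of the 177 UMIs of the list. Cdk1, the kinase that drives entry into mitosis, was at 3.68 and 38.1 CPM, a ratio of 10.4 (3.51 to 50.6) that again rests on 3 UMIs in library 1. Both genes were low in library 1 and clearly counted in library 2. Ube2c, the ubiquitin-conjugating enzyme that works with the anaphase-promoting complex, had 0 UMIs in library 1 and 50.3 CPM in library 2, at least 13.7-fold higher. Prc1, which bundles microtubules at the spindle midzone, had 0 UMIs and 45.3 CPM, at least 12.3-fold higher. Cks2 and Smc4, a CDK-binding subunit and a condensin subunit, had the smallest excess of the members past 2-fold, with ratios of 3.06 (1.94 to 5.12) and 3.18 (1.80 to 6.22).

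Pttg1, or securin, which holds back separase until anaphase, was the exception. It was at 83.3 CPM (64.7 to 106) in library 1 and 58.4 (52.9 to 64.3) in library 2, and gave 68 of the 177 UMIs of the list in library 1. Without Pttg1, a choice made after its values were seen, the list summed to 134 CPM (110 to 161) in library 1 and 1733 (1703 to 1764) in library 2, a ratio of 13 (10.7 to 15.8).

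Promoters of this list are shown because its members were higher together. The 2 printed held more matches than the other windows of the list that are described below. The sequences are the 250 bases before the RefSeq start of the gene in GRCm38.p6, written 5′ to 3′ on the strand of the gene, for Top2a (chr11:99024190-99024439, minus strand) and Ube2c (chr2:164769679-164769928, plus strand). Capitals mark each match, on either strand, to the cell cycle gene homology region, whose letters are TTTGAA or, as a variant, TTCGAA, and to the CCAAT box. The variant reads the same on both strands and was counted once, and 2 of the CCAAT box matches in Ube2c overlap on opposite strands. The homology region is abbreviated CHR.
Top2a: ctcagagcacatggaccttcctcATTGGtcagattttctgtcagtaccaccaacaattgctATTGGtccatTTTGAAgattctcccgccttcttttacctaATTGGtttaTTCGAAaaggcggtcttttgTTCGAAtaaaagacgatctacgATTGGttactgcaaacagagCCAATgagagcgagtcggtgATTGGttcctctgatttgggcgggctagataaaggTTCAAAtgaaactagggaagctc
Ube2c: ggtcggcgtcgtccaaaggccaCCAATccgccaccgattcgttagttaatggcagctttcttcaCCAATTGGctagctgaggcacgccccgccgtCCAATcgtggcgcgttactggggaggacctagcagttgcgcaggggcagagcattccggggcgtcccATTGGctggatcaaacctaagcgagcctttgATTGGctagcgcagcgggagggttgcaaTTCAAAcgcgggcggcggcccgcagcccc

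The Top2a window held 4 CHR and 6 CCAAT box matches and the Ube2c window 1 and 6. The Cks1b window held 2 and 4, and the Cdca3 window 0 and 2, though their RefSeq starts are not those of GENCODE M21. Prc1 had 1 CCAAT box match in each of its windows and a CHR match in only 1 of them. Of the 16 mitosis genes at least 2-fold higher, 13 had a promoter in the RefSeq table, of which 7 (53.8%) held a CHR match and 12 (92.3%) a CCAAT box match. A gene was counted once, as holding a match if any of its windows did. Among all 27025 genes of the table the shares were 19.6% for CHR and 37.5% for the CCAAT box. Among the 4813 genes kept with a promoter they were 14.6% and 40.0%. Among the 180 such genes at least 2-fold higher they were 18.9% and 51.7%, and among the 126 at least 2-fold lower 16.7% and 38.9%. The window of Birc5 held no match to these letters, but its RefSeq start is not the start given by GENCODE M21. A match describes the letters of the window and not a binding site.

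UMIs of the mitosis list were found in most cells of library 2. Among 2000 UMIs, a cell of library 2 had a median of 3 UMIs of the mitosis list and a 95th percentile of 10, and a cell of library 1 a median of 0 and a 95th percentile of 2. At least 1 UMI of the list was found in 31.1% of cells of library 1 (26.7 to 35.9) and in 94.1% of cells of library 2 (93.2 to 94.8). At least 3 UMIs were found in 4 of 408 cells of library 1, or 0.980% (0.268 to 2.49), and in 56.2% of cells of library 2 (54.5 to 57.8). In library 3 the share with at least 3 UMIs was 1.31%. Cell types that should lack these genes were too few among the sorted cells to serve as a reference. How many of these UMIs are free RNA from the droplets therefore could not be measured. A cell with UMIs of the list is thus not read as a cell that expressed it.

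**Figure D2:**
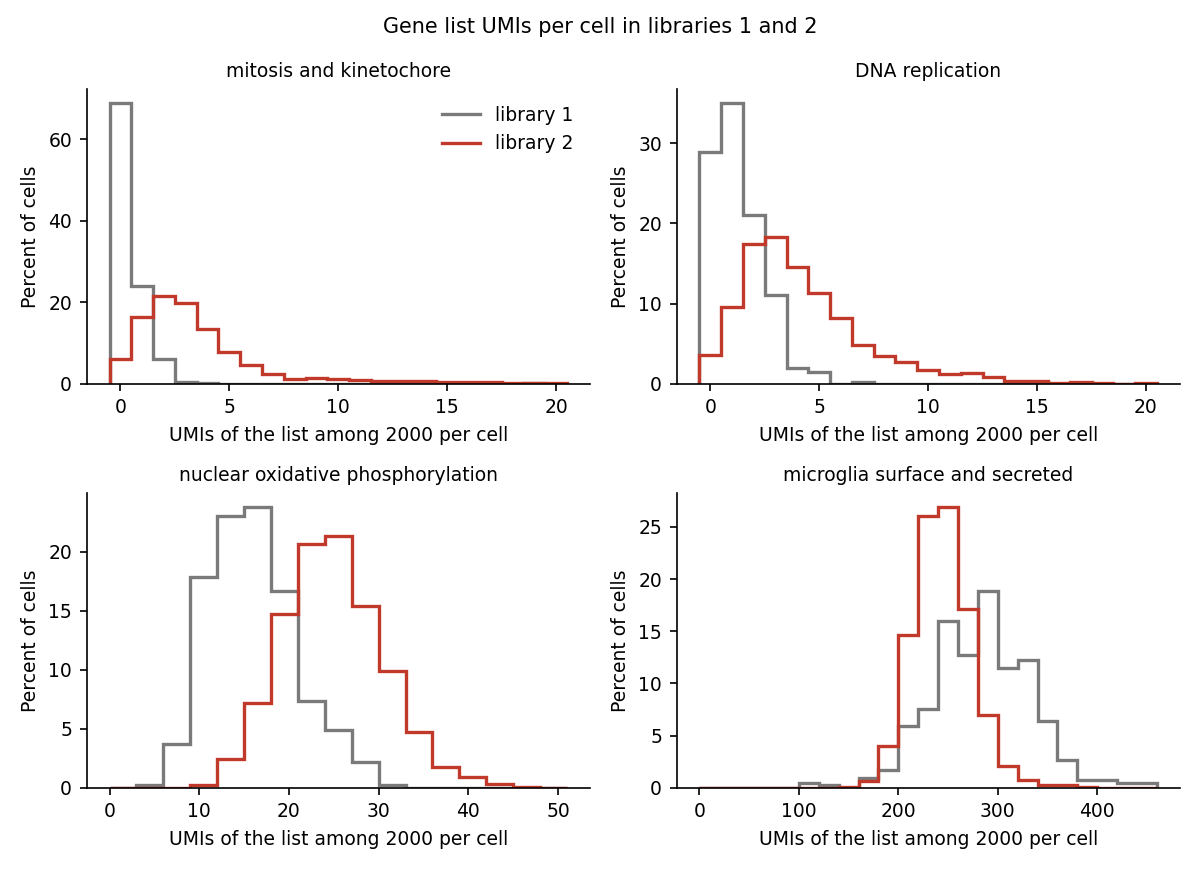
Distribution of cells by the number of UMIs of 4 gene lists among 2000 UMIs per cell, as percent of the cells of library 1 (grey) and library 2 (red), with the 2 upper panels drawn up to 20 UMIs in steps of 1. The mitosis and DNA replication counts of library 2 are shifted right with a long tail, the nuclear oxidative phosphorylation counts are shifted right as a whole, from a median of 15 to 24, and the microglia surface and secreted counts are shifted left, from a median of 285 to 243. The last list holds Cst3, whose fall, from 61578 to 37484 CPM, was larger than that of the summed list.

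DNA replication genes were higher in library 2 for 48 of 50 list members. Library 1 had 0 UMIs of 7 of the 50, and any UMI in library 2 sets the direction of those 7. The summed level of the 50 genes was 654 CPM (600 to 712) in library 1 and 2101 (2068 to 2135) in library 2, a ratio of 3.21 (2.95 to 3.51), with 1049 in library 3. At least 3 UMIs of the list were found in 15% of cells of library 1 (11.6 to 18.8) and 69.4% of library 2 (67.8 to 70.9). Of the 26 members that reached the mean level of 20 CPM, 20 were at least 2-fold higher and 0 at least 2-fold lower, against 3.76% and 2.97% of all genes kept.

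The 3 members with the highest log2 ratios were Hells, Tk1 and Rrm2. Hells, a chromatin remodeling helicase, had 1 UMI in library 1 and 39.1 CPM in library 2, a ratio of 31.9 with a counting interval of 5.68 to 1264. Tk1, thymidine kinase, was at 3.68 and 63.0 CPM, a ratio of 17.1 (5.83 to 83.5). Rrm2, the regulated subunit of ribonucleotide reductase, was at 2.45 and 44.7 CPM, a ratio of 18.2 (5.01 to 151). The ratios of all 3 are wide because library 1 gave only 1 to 3 UMIs of each. Tyms, thymidylate synthase, was better counted, at 20.8 CPM (12.1 to 33.4) in library 1 and 111 (103 to 119) in library 2, a ratio of 5.33 (3.31 to 9.20). At the other end of the list, Pold3 and Rpa3, subunits of DNA polymerase delta and of the single-strand binding protein RPA, had ratios of 1.01 (0.664 to 1.62) and 0.921 (0.563 to 1.6).

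For Hells the window before the RefSeq start (chr19:38930740-38930989 of GRCm38.p6, plus strand), which is not the start given by GENCODE M21, is shown because it holds a match, in capitals, to the E2F letters searched on both strands (TTTGGCGC, TTTCCCGC, TTTCGCGC or TTTGGCGG).
Hells: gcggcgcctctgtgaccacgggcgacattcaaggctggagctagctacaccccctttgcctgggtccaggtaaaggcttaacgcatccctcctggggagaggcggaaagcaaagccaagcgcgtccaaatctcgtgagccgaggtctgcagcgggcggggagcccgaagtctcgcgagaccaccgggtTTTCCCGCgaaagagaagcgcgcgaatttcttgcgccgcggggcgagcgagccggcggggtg

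Such a match was held by 6 of the 17 replication genes at least 2-fold higher with a promoter (35.3%) and by 1 of 13 such mitosis genes (7.69%). The shares were 10.0% for all genes at least 2-fold higher, 4.67% for the genes kept and 2.26% for all genes, each with a promoter. The window of Rfc4, a replication gene at least 2-fold higher, held no such match.

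Histone and chromatin genes used by dividing cells were also higher. The 24 genes of this list summed to 1364 CPM (1285 to 1447) in library 1 and 2996 (2956 to 3036) in library 2, a ratio of 2.20 (2.07 to 2.33). H2afz, which encodes the histone variant H2A.Z, was the most abundant of the genes past 2-fold, at 328 CPM (290 to 370) in library 1 and 1129 (1105 to 1154) in library 2, a ratio of 3.44 (3.04 to 3.90). H2afx, the variant phosphorylated at DNA breaks, was at 17.2 and 93.4 CPM, a ratio of 5.45 (3.22 to 10.0). Hist1h2ap, a replication-dependent H2A gene with many near-identical copies, was at 36.8 and 181 CPM, and its reads may be shared with those copies. Lmnb1, a nuclear lamin, was at 4.90 and 42.0 CPM from 4 UMIs in library 1, a ratio of 8.57 (3.31 to 31.7). The members Hist1h1e and Hist1h2bc differed little, with ratios of 0.811 (0.584 to 1.15) and 0.805 (0.588 to 1.13).

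Regulators of G1 were divided. Of 14 members that reached the mean level, 4 were at least 2-fold higher in library 2 and 0 at least 2-fold lower, against 3.76% and 2.97% of all genes kept, and the median log2 ratio was 0.26. E2f1, the transcription factor that switches on S phase genes, was at 3.68 and 49.0 CPM in libraries 1 and 2, and Ccne2, cyclin E2, at 3.68 and 40.8. The ratios were 13.3 (4.53 to 65.0) and 11.1 (3.76 to 54.1), each resting on 3 UMIs in library 1. Cdkn2d, a CDK inhibitor that is itself made during S phase, was at 11 and 48.3 CPM, a ratio of 4.38 (2.28 to 9.66). Rb1, the retinoblastoma protein that holds E2F, and Cdkn1b, the inhibitor p27, were below 1, with ratios of 0.526 (0.339 to 0.846) and 0.635 (0.444 to 0.933).

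Myc, a growth-promoting transcription factor named by the study, had the same level in both libraries within counting error, at 41.7 CPM (28.9 to 58.2) in library 1 and 41.5 (36.9 to 46.5) in library 2, a ratio of 0.995 (0.696 to 1.46). It was at 94.9 CPM in library 3. Of 28 measured members of the Myc network and ribosome biogenesis list, 4 (14.3%) were at least 2-fold higher and 0 lower. Among all genes kept the shares were 3.76% and 2.97%. The median log2 ratio of the measured members was 0.26. Srm, spermidine synthase, was at 29.4 and 94.3 CPM, a ratio of 3.21 (2.14 to 5.04). Eif5a, the translation factor that carries a spermidine-derived residue, was at 288 and 637, a ratio of 2.21 (1.94 to 2.53). Odc1, the enzyme before Srm in the polyamine pathway, had a ratio of 0.739 (0.542 to 1.03). Tnfaip3, which encodes the ubiquitin-editing enzyme A20 and is also named by the study, was at 25.7 CPM (15.9 to 39.3) in library 1 and 9.11 (7.03 to 11.6) in library 2, a ratio of 0.354 (0.213 to 0.609), and at 29.8 in library 3. Its mean level of the 2 libraries was below the limit of 20 CPM, so it is not among the 6192 genes.

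Beside Stmn1, a pair of tubulin genes, subunits of microtubules, was higher in library 2. Tubb4b was at 30.6 and 121 CPM, a ratio of 3.95 (2.66 to 6.14), and Tubb5 at 281 and 628, a ratio of 2.24 (1.96 to 2.57). These were the only 3 of 18 measured members (16.7%) of the stathmin, tubulin and actin list past 2-fold in the higher direction. Among all genes kept the share was 3.76%. The most abundant member, Tmsb4x, which binds actin monomers, was at 12469 and 14941 CPM, a ratio of 1.20 (1.17 to 1.22).

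**Figure D3:**
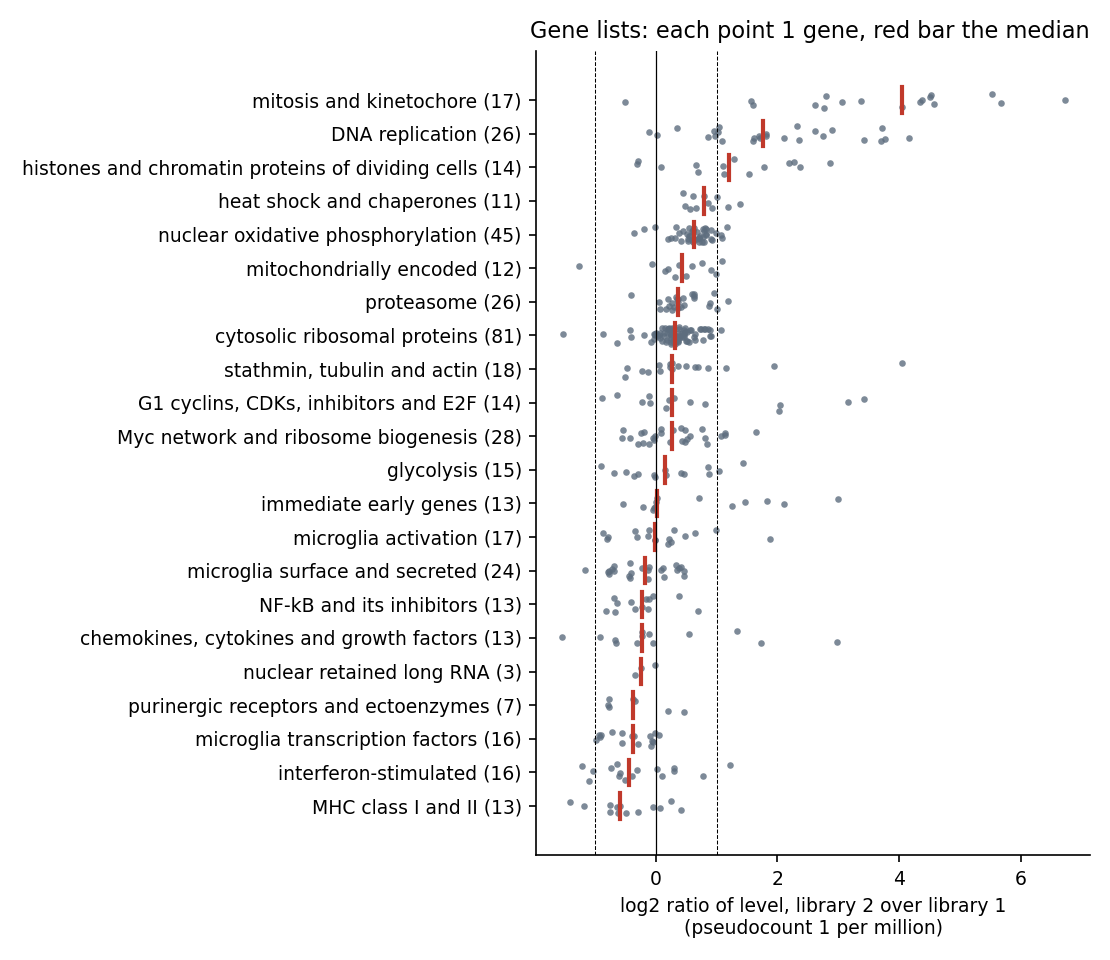
Log2 ratio of the level in library 2 over library 1, with 1 CPM added to both, for the measured members of 22 gene lists, 1 point per gene, with the red bar at the median of each list, the number of genes in brackets and dashed lines at 2-fold. The mitosis median of 4.04 and the DNA replication median of 1.76 are the highest, and the other lists lie between -0.59 for MHC class I and II and 1.20 for histones.

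Of the 15 highest genes, Cd244 had the highest ratio outside the cell cycle lists. Cd244, an immune receptor of the SLAM family, had 2 UMIs in library 1 and a level of 107 CPM (99.7 to 115) in library 2, a ratio of 43.7 with a counting interval of 12.1 to 362, and was found in 0.490% and 18.7% of cells. Fxyd5, a regulator of the sodium pump, was at 31.9 and 106 CPM, a ratio of 3.33 (2.26 to 5.14). Erdr1, a gene of the pseudoautosomal region, was at 24.5 and 98.6, a ratio of 4.02 (2.59 to 6.63). Cd244 was also above library 1 in library 3, at 47.2 CPM, and Erdr1 at 71.6, while Fxyd5 was at 38.7.

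**Figure D4:**
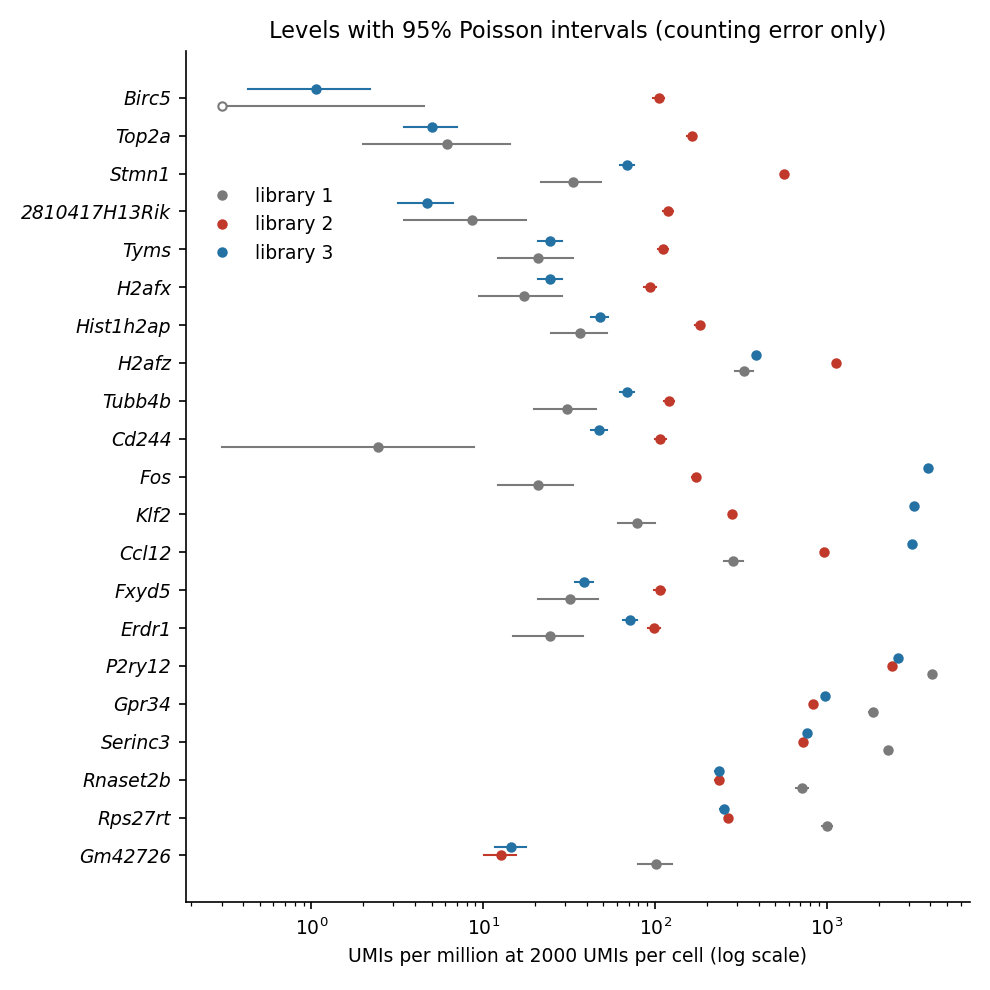
Levels of 21 genes in UMIs per 1000000 (CPM, log scale) in library 1 (grey), library 2 (red) and library 3 (blue), with exact 95% Poisson intervals of counting error; the open circle of Birc5 in library 1 stands for 0 UMIs and is drawn at the left limit of the axis. The cell cycle genes from Birc5 to Tubb4b are highest in library 2, Fos, Klf2 and Ccl12 are highest in library 3, and the genes from P2ry12 down are highest in library 1.

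Immediate early genes, which are transcribed within minutes of a stimulus, were higher in part. Of 13 measured members, 5 were at least 2-fold higher in library 2, namely Fos, Egr1, Klf2, Dusp1 and Ier2, against 3.76% of all genes kept. At least 2-fold lower were 0, and the median log2 ratio was 0.02. Fos, a subunit of AP-1, was at 20.8 CPM (12.1 to 33.4) in library 1 and 173 (164 to 183) in library 2, a ratio of 8.33 (5.18 to 14.3), and was found in 3.68% and 26.5% of cells. Egr1, a zinc finger transcription factor, was at 11 and 51.1 CPM, a ratio of 4.64 (2.42 to 10.2), and Klf2 at 78.4 and 281, a ratio of 3.58 (2.80 to 4.67). Library 3 was far higher than both, with 3872 CPM for Fos, 931 for Egr1 and 3220 for Klf2. Rhob, a small GTPase, and Btg2, an antiproliferative gene, were below 1 in library 2, with ratios of 0.685 (0.624 to 0.752) and 0.868 (0.767 to 0.985). Summed over the 25 genes of the list, the levels were 2973 CPM in library 1, 3468 in library 2 and 30238 in library 3, so library 2 was close to library 1.

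Chemokines and cytokines differed in both directions. Of 13 measured members, 3 (23.1%) were at least 2-fold higher in library 2 and 1 (7.69%) at least 2-fold lower. Among all genes kept the shares were 3.76% and 2.97%. Ccl12, a ligand of CCR2, was at 286 CPM (250 to 325) in library 1 and 955 (932 to 978) in library 2, a ratio of 3.34 (2.93 to 3.83), with a UMI in 22.3% and 78.0% of cells. Ccl2, a second CCR2 ligand, was at 7.35 and 65.0, a ratio of 8.84 (4.03 to 24.2), and Tnf at 13.5 and 35.4, a ratio of 2.63 (1.44 to 5.33). Il6, an inflammatory cytokine, was lower, at 31.9 CPM (20.8 to 46.7) in library 1 and 10.2 (8.02 to 12.9) in library 2. Ccl3 and Ccl4, a pair of inflammatory chemokines, were at 105 and 146 CPM in library 1 and at 55.2 and 91.2 in library 2. They had 86 and 119 UMIs in library 1, where the highest cell held 87 UMIs of the whole list (median 3). In library 2 the highest cell held 112 (median 5). The levels of Ccl3 and Ccl4 may thus rest on few cells, which was not tested. For Ccl4 the level and the share of cells moved in opposite directions, since a UMI was found in 4.90% of cells of library 1 and 11.4% of library 2. The CCR2 ligands and Tnf were highest in library 3, with 3125 CPM for Ccl12, 409 for Ccl2 and 160 for Tnf. Ccl3 and Ccl4 were highest there too, at 822 and 750 CPM.

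Genes of the NF-kB pathway showed no member past 2-fold among 13 measured, with a median log2 ratio of -0.23. Tnfaip3 also belongs to this list, with a ratio of 0.354 (0.213 to 0.609), but its mean level was below the limit. Of all 20 genes of the list, 5 had a higher level in library 2 and 15 a lower level. Their summed level had a ratio of 0.788 (0.748 to 0.830). Among all genes kept, 3.76% were at least 2-fold higher and 2.97% at least 2-fold lower. Nfkbia, the inhibitor that NF-kB induces, was at 203 and 198 CPM, a ratio of 0.973 (0.828 to 1.15). Cd14, a co-receptor for lipopolysaccharide, was at 616 and 383, a ratio of 0.621 (0.564 to 0.684), and Sod2, the mitochondrial superoxide dismutase, at 33.1 and 54.2, a ratio of 1.64 (1.11 to 2.52).

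Heat shock proteins and chaperones were higher for all 11 measured members, with a median log2 ratio of 0.79, but only 2 passed 2-fold. These were 18.2% of the measured members, against 3.76% of all genes kept. Of all 17 genes of the list, 14 had a higher level in library 2 and 3 a lower level. Library 1 had 0 UMIs of 2 genes of the list. Hsp90aa1 was at 77.2 and 203 CPM, a ratio of 2.63 (2.05 to 3.45), and Hsp90ab1 at 290 and 663, a ratio of 2.28 (2.0 to 2.61); both encode HSP90 chaperones of the cytosol. Hspa8, the constitutive HSP70, was at 599 and 1139, a ratio of 1.90 (1.73 to 2.09). Over all 17 genes of the list the summed level was 3121 CPM in library 1, 5385 in library 2 and 8118 in library 3. Proteasome subunits were likewise above 0 for 25 of 26 members, with a median log2 ratio of 0.37. Psmb3 was at 110 and 252 CPM, a ratio of 2.28 (1.85 to 2.85), and the immunoproteasome subunit Psmb9 was the 1 member below, with a ratio of 0.754 (0.588 to 0.980).

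Nuclear genes of oxidative phosphorylation were moderately higher in most members. All 45 nuclear-encoded subunits of the list were measured, 42 of them above 0, with a median log2 ratio of 0.63. The 3 at least 2-fold higher (6.67%) are a share not far from the 3.76% of all genes kept. The summed level was 7795 CPM (7605 to 7989) in library 1 and 12228 (12147 to 12310) in library 2, a ratio of 1.57 (1.53 to 1.61), and 9225 in library 3. Uqcr11, a subunit of complex III, was at 176 and 399 CPM, a ratio of 2.26 (1.91 to 2.69), and Cox5b, a subunit of complex IV, at 135 and 285, a ratio of 2.11 (1.74 to 2.58). Sdhd, a subunit of complex II, was the lowest, with a ratio of 0.774 (0.579 to 1.05). The difference was present across the cells: the median cell had 15 UMIs of this list in library 1 and 24 in library 2, and the 5th percentile of library 2, 16 UMIs, was above the median of library 1.

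The genes of the mitochondrial genome were higher as well, with 10 of 12 measured members above 0 and a summed ratio of 1.64 (1.6 to 1.67). mt-Nd1, of complex I, was at 1009 and 2155 CPM, a ratio of 2.14 (1.99 to 2.29). mt-Atp8 went against the rest, at 282 CPM (247 to 321) in library 1 and 118 (110 to 126) in library 2. It overlaps mt-Atp6 on the same strand, from position 7927 to 7969 of the mitochondrial chromosome in GRCm38, and how reads of the overlap were counted was not tested. mt-Atp6 was at 1828 and 3447 CPM, a ratio of 1.89 (1.79 to 1.99).

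Glycolysis genes differed in both directions. Of 15 measured members, 2 (13.3%) were at least 2-fold higher and 0 at least 2-fold lower, with a median log2 ratio of 0.15. Among all genes kept the shares were 3.76% and 2.97%. Pkm, pyruvate kinase, was at 148 and 405 CPM, a ratio of 2.73 (2.27 to 3.30), and Tpi1, triosephosphate isomerase, at 76.0 and 157, a ratio of 2.06 (1.6 to 2.71). Gapdh had a ratio of 1.82 (1.62 to 2.05) and Ldha, lactate dehydrogenase, of 1.85 (1.54 to 2.23). Hk2 and Hk3, hexokinases that start the pathway, were below 1, with ratios of 0.714 (0.641 to 0.797) and 0.527 (0.366 to 0.778).

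Cytosolic ribosomal protein genes were slightly higher, with 70 of 81 measured members above 0 and a median log2 ratio of 0.31. Their summed level was 89612 CPM in library 1, 111940 in library 2 and 89779 in library 3. Rpsa, the laminin receptor and a small subunit protein, was the 1 member at least 2-fold higher, a share below the 3.76% of all genes, at 430 and 901 CPM, a ratio of 2.1 (1.88 to 2.34). Rpl27 was at 723 and 394, a ratio of 0.545 (0.499 to 0.597). The 1 member at least 2-fold lower (1.23%, against 2.97% of all genes kept), Rpl6l, is annotated as a processed pseudogene.

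Microglia identity genes were retained in library 2 at modestly different levels. Of 24 measured surface and secreted genes, 9 were above 0 and 15 below, with a median log2 ratio of -0.18, and 1, Gpr34, was at least 2-fold lower. That share, 4.17%, is near the 2.97% of all genes kept. Gpr34, a lysophosphatidylserine receptor, was at 1847 CPM (1755 to 1942) in library 1 and 828 (807 to 849) in library 2, a ratio of 0.448 (0.424 to 0.475). P2ry12, the ADP receptor that guides microglial processes, was at 4061 and 2384 CPM, a ratio of 0.587 (0.566 to 0.610), and was found in 99.0% and 98.7% of cells. Purinergic genes beside it were lower in like measure, with ratios of 0.584 (0.541 to 0.632) for P2ry13 and 0.577 (0.506 to 0.660) for the ectonucleotidase Entpd1, while P2ry6, the UDP receptor, had a ratio of 1.38 (1.26 to 1.5). Cst3, or cystatin C, the most abundant gene of the list, was at 61578 CPM in library 1 and 37484 in library 2, a ratio of 0.609 (0.603 to 0.615).

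Other identity genes differed less, in either direction. Csf1r, the receptor for the survival factors CSF1 and IL34, was at 2358 and 1762 CPM, and Cx3cr1, the fractalkine receptor, at 2062 and 1544. Tmem119 was at 2767 and 3485, a ratio of 1.26 (1.21 to 1.32), and Fcrls at 1308 and 1215. C1qa and C1qb, chains of the complement component C1q, had the highest ratios of the list, 1.39 (1.36 to 1.42) and 1.38 (1.35 to 1.41). Ccr2, the monocyte receptor, had 2 UMIs in library 1 and 4 in library 2, and Cd163 had 0 in both.

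Transcription factors of microglia were below 0 for 15 of 16 members, with a median log2 ratio of -0.38 and none past 2-fold. The median of all genes kept was itself -0.08, and some members counted as below 0, such as Runx1 at -0.05, lay above it. Among all genes kept, 2.97% were at least 2-fold lower. Sall1, which maintains microglial identity, was at 189 CPM (160 to 221) in library 1 and 98.5 (91.3 to 106) in library 2, a ratio of 0.522 (0.438 to 0.625). Zfhx3 was at 475 and 241, a ratio of 0.507 (0.454 to 0.568), and Maf at 603 and 319, a ratio of 0.529 (0.480 to 0.584). Runx1 and Cebpb had ratios of 0.964 (0.786 to 1.19) and 1.04 (0.898 to 1.20). In library 3 Sall1 was at 88.8 CPM, while the list summed to 6384, against 6782 in library 1 and 5196 in library 2. The median transcript length of the list was 5178 bases, and longer transcripts had lower ratios in general, as given with the transcript features.

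Genes of antigen presentation were lower in library 2 for most members. The 17 MHC genes of the list summed to 8761 CPM in library 1 and 6297 in library 2, a ratio of 0.719 (0.701 to 0.737). In library 3 they summed to 5850 CPM, below both. Of 13 measured members, 10 were below 0, with a median log2 ratio of -0.59, and 2 (15.4%) were at least 2-fold lower. Among all genes kept the share was 2.97%. H2-T23, a nonclassical class I molecule, was at 145 CPM (120 to 173) in library 1 and 53.5 (48.3 to 59.2) in library 2, a ratio of 0.370 (0.300 to 0.459). Tap2, a subunit of the peptide transporter, was at 91.9 and 40.2 CPM, a ratio of 0.437 (0.338 to 0.572), while its partner Tap1 had a ratio of 1.06 (0.740 to 1.55). B2m, the light chain of class I, was at 5263 and 3497, a ratio of 0.664 (0.643 to 0.686). H2-DMa, a class II peptide exchange factor, was the highest, with a ratio of 1.33 (1.21 to 1.48).

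Interferon-stimulated genes had 3 of 16 measured members at least 2-fold lower and 1 at least 2-fold higher, against 2.97% and 3.76% of all genes kept, with a median log2 ratio of -0.45. Xaf1, an antagonist of XIAP, was at 95.6 and 40.5 CPM, a ratio of 0.424 (0.329 to 0.551), and Oasl2 and Ifit3, both antiviral, had ratios of 0.449 (0.292 to 0.713) and 0.474 (0.324 to 0.711). Oasl2 and Ifit3 had 27 and 34 UMIs in library 1, where the highest cell held 56 UMIs of the list (median 2). In library 2 the highest cell held 21 (median 3). How far these levels rest on few cells was not tested. Ifitm3, a membrane restriction factor, was higher, at 53.9 and 127 CPM, a ratio of 2.36 (1.74 to 3.27). The summed level of the 26 genes was 1605 CPM (1520 to 1695) in library 1 and 1586 (1557 to 1615) in library 2, a ratio of 0.988 (0.933 to 1.05), although the median of the measured members was below 0. Among genes of microglia activation, 1 of 17 measured was past 2-fold, Cst7, or cystatin F, at 9.80 and 38.7 CPM, a ratio of 3.94 (1.97 to 9.23). That share, 5.88%, is near the 3.76% of all genes kept. Apoe and Lpl, both of lipid handling, had ratios of 0.582 (0.538 to 0.631) and 0.540 (0.403 to 0.737), and Apoe was found in fewer cells of library 1 (40.0%) than of library 2 (56.4%) although its level was higher there, at 902 against 525 CPM. Apoe had 736 UMIs in library 1, where the highest cell held 341 UMIs of the activation list (median 60). In library 2 the highest cell held 148 (median 58). How much of the Apoe level came from few cells was not tested. The nuclear RNA Malat1 was at 48786 and 41146 CPM, a ratio of 0.843 (0.835 to 0.852).

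The genes furthest below in library 2 were largely gene models with near-identical copies. Of the 15 lowest ratios, 7 were annotated as processed pseudogenes, and others, such as Rps27rt and Rpl9-ps6, are named as copies of ribosomal protein genes. Of 19 pseudogenes among the genes kept, 12 (63.2%) were at least 2-fold lower, against 2.97% of all genes kept, and 0 at least 2-fold higher, and their summed level was 4305 CPM in library 1, 1703 in library 2 and 1605 in library 3. How reads that match a copy and its parent gene equally were counted was not tested, so these values are uncertain.

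Rps27rt, a retrotransposed copy of Rps27, was at 1005 CPM (937 to 1076) in library 1 and 265 (254 to 278) in library 2, a ratio of 0.264 (0.243 to 0.287), whereas Rps27 itself was at 2321 and 2027, a ratio of 0.873 (0.832 to 0.917). Rpl9-ps6 was at 309 and 69.6 CPM, and Rpl9 at 973 and 1040. Rpl13-ps3 had a ratio of 0.317 (0.265 to 0.381), and Rpl13 of 1.28 (1.22 to 1.36). For Rpl27-ps3 and Rpl23a-ps3, with ratios of 0.295 (0.250 to 0.349) and 0.330 (0.297 to 0.369), the parents were below 1 too, Rpl27 at 0.545 (0.499 to 0.597) and Rpl23a at 0.742 (0.691 to 0.797). Rpl6l had a ratio of 0.346 (0.300 to 0.399) and Rpl6 of 1.09 (1.03 to 1.16). In all 6 pairs, chosen after their values were seen, the copy had the lower ratio. All 6 copies were taken from the 15 lowest ratios and no parent was among these, so the choice set this direction.

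Among the other lowest genes, Serinc3, a multipass membrane protein, was at 2272 CPM (2170 to 2378) in library 1 and 722 (702 to 742) in library 2, a ratio of 0.318 (0.301 to 0.335), and was found in 97.1% and 75.1% of cells. Wdr89 was at 692 and 231 CPM, a ratio of 0.333 (0.302 to 0.367). Rnaset2b, a lysosomal ribonuclease, was at 718 and 235, a ratio of 0.327 (0.297 to 0.359), and is uncertain in the same way as the copies because it has a close paralog. Gm42726, annotated as antisense to another gene (chr5:65587716-65591440, minus strand, GENCODE M21 on GRCm38), had the lowest ratio of the genes kept, at 100.5 and 12.6 CPM, a ratio of 0.125 (0.0920 to 0.171). In library 3 these 4 genes were at 766, 233, 236 and 14.5 CPM, near their levels in library 2.

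The position of the named genes in GRCm38, by GENCODE M21, is given for those on which the comparison turns. Birc5 lies at chr11:117849251-117855743 on the plus strand, Top2a at chr11:98992943-99024189 on the minus strand, Stmn1 at chr4:134468320-134473843 on the plus strand and Mki67 at chr7:135689784-135716361 on the minus strand. Cd244 lies at chr1:171559193-171609746 on the plus strand, Gpr34 at chrX:13632089-13640858 on the plus strand and Serinc3 at chr2:163623272-163645131 on the minus strand. The levels count reads over the exons of these genes as Cell Ranger assigns them.

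Transcript length and base composition moved with the ratio. Both were taken from the longest GENCODE M21 transcript of each gene, which need not be the RNA that was counted. With genes of the cell cycle lists left out, the median log2 ratio went down over 5 equal groups of genes by transcript length, from 0.23 in the shortest group (up to 1795 bases) to 0.08, -0.09, -0.21 and -0.31 in the longest (4999 bases and over). Over 5 equal groups by transcript GC content it went from -0.24 in the lowest (up to 43.4%) to 0.11 in the highest (55.1% and over). Spearman's correlation across 6130 genes, which are not independent replicates and share both libraries, was -0.35 with length and 0.25 with GC. Genes at least 2-fold higher had a median transcript length of 1930 bases, those within 2-fold of 3187 bases. Nuclear oxidative phosphorylation genes, with a median length of 927 bases, and ribosomal protein genes, with 1094 bases, have median lengths within the shortest group. With the ratios centred within groups of like length and GC, a step chosen after seeing the data, their median log2 ratios were 0.47 and 0.17, against 0.63 and 0.31 without it. The median of the microglia transcription factors became -0.29 in place of -0.38, and that of the mitosis list 4.32 in place of 4.04.

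**Figure D5:**
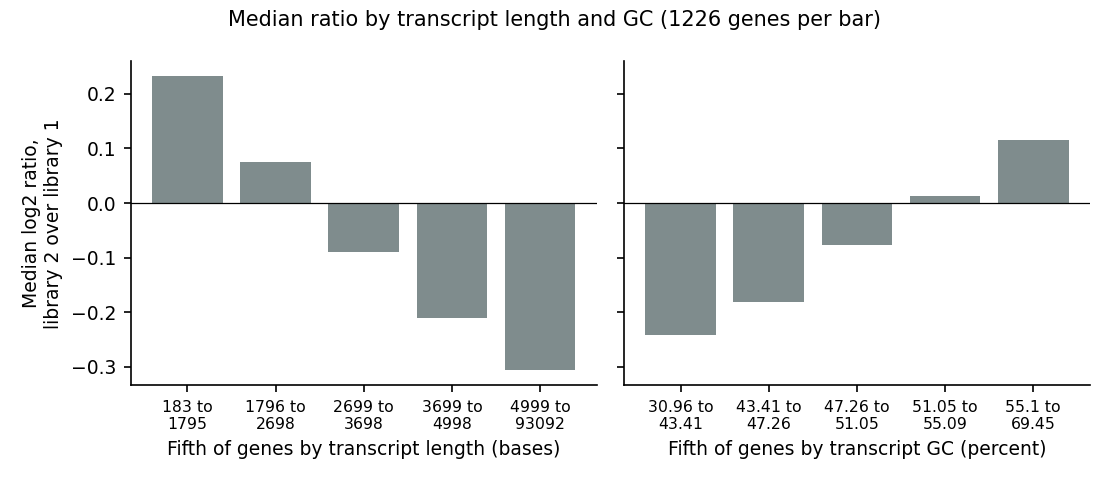
Median log2 ratio of library 2 over library 1 in 5 equal groups of genes by transcript length (left, bases) and by transcript GC content (right, percent), 1226 genes per bar, with genes of the cell cycle lists left out and the bars starting at 0. The median goes down with length, from 0.23 to -0.31, and up with GC content, from -0.24 to 0.11.

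Cell cycle genes, 57 of the 6192 genes kept, made up 45 of the 233 genes at least 2-fold higher (19.3%), 12 of the 5775 within 2-fold and 0 of the 184 lower. The other members of the 124 in these lists did not reach the mean level of 20 CPM. A member could reach it through library 2 alone, so this split describes the lists and supports nothing.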

How the data were processed

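YFP (+) cells of the lumbar cord were sequenced as 1 droplet library for each of 3 groups. The authors deposited counts of UMIs per gene and cell, not normalized, as 1 matrix of 27998 genes that joins the libraries. The submitters' processing notes name Cell Ranger 2.1.1 and the build mm10. The labels and the methods name different versions of the kit.

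Cells of at least 2000 UMIs were thinned to 2000 without replacement (seed 1), and counts were summed per library and scaled to UMIs per 1000000 (CPM). Genes with a mean level of the 2 libraries of at least 20 CPM were kept. Log2 ratios had a pseudocount of 1 CPM. With 1 library per side no test was made, and a gene was counted as different at a ratio of at least 2 or at most 0.5. Ratio intervals are exact and conditional, at 95%. A count of 0 was given a limit of 3 counts per library. Doublets were not called, and the methods state doublet exclusion in the sort. No value column was left unassigned (0).

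Named genes were the 15 highest and 15 lowest ratios at a mean level of at least 50 CPM, up to 3 members at each end of each list and its most abundant member, and 13 genes that the study names. The members and lists were chosen with earlier results of these data known. Gene models came from GENCODE M21, of which 6190 of the 6192 genes kept were matched, and promoters from RefSeq on GRCm38.p6. The comparison was run on simulated data in which all cells of a library shared the same profile. Spread between cells was thus not covered. Alternatives changed the thinning, the random draw, the cells, the pseudocount, the limit on low values and the centring. Scripts ran under Python 3.11.15 with pandas 2.3.3, scipy 1.17.1, matplotlib 3.10.9 and numpy 2.4.6.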

Additional observations from a re-analysis of the deposited data

Results flagged for a closer look

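The 201 cells of library 1 under 2000 UMIs were left out of the main comparison and entered only some of the alternatives. They held 41 UMIs of the mitosis and kinetochore list, in 35 cells, which is above the limit that a count of 0 allows. This is a level of 149 CPM (107 to 202, exact Poisson interval), against a limit of 10.9 CPM for a count of 0 in these cells, and against 217 CPM in the kept cells of library 1. The 22 cells of library 2 under 2000 UMIs held 67 UMIs of the list, or 1644 CPM (1274 to 2088), near the 1792 CPM of the kept cells of library 2. Library 2 was thus above library 1 among the cells left out as well. No cause was tested.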

How the results depend on the processing

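The counts of genes at least 2-fold higher (233) and genes at least 2-fold lower (184) in library 2 depended mainly on how low values were treated. With a pseudocount of 5 CPM the lower genes were 118. With a mean level of at least 50 CPM the counts were 98 higher and 76 lower, and with no filter 1082 and 1079. In cells without a UMI of the mitosis list (281 of library 1 and 212 of library 2) the lower genes were 394. Another random draw kept 191 of the 233 higher and 125 of the 184 lower genes, and cells of 2000 to 4000 UMIs, closer in depth, 153 and 108. Centring by transcript length and GC, chosen after seeing the data as were leaving out pseudogenes and shared barcodes, kept 170 and 107. Of the list medians under all alternatives, 373 stayed within the median counting interval of their members, 6 moved and 1 that was past 2-fold changed sign, that of the endothelial list, from -1.05, which rests on Pecam1, to 0.19 with no filter. Medians near 0 changed sign for chemokines (-0.23 to 0.07 with no filter), nuclear long RNA (-0.25 to 0.05 with centring by length and GC), microglia activation (-0.02 to 0.11) and immediate early genes (0.02 to -0.06), the last 2 in cells of 2000 to 4000 UMIs. The median of the mitosis list ranged from 3.01 to 4.52 and that of the DNA replication list from 0.996 to 2.15. No paired analysis was possible because each side is 1 library and no test was made, and for the same reason no replicate could be left out. Low depth in library 1, with a median of 44 UMIs per kept gene, limits every ratio.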
